A study of Mus musculus with 15 samples.

Results

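The interval on mouse chromosome 6 (Chr6) that runs from a probe for the cDNA AK135613 through Chn2, Prr15 and Scrn1 to Fkbp14 was examined probe by probe in liver DNA. Its members were all autosomal probes placed between positions 54212324 and 54527893, a span of 316 kb. There were 9 such probes among 40726 autosomal probes, and 10 flanking probes on either side were read with them. The interval was selected on measured values, namely a lower mean of its probes in 1 tumour, HCC 4, than in the liver of the same mouse, so that difference is described here and not tested. In its label the interval is a copy variant, but the data did not bear this out over its length. Of the 9 probes, 2 stood above their surroundings in all 3 tissues of 1 mouse, the AK135613 probe and the Scrn1 probe. At the Scrn1 probe this depended on how background was treated.

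The measurements were array comparative genomic hybridization (array CGH), in which DNA of a tissue and reference DNA carry different dyes and compete for the same probes. A value is log2 of tissue over reference, averaged over both dye orientations and given relative to the median of Chr6, and is called a level. The mice carried floxed Mad2 (Mad2l1, a spindle checkpoint gene), floxed p53 (Trp53) and AlbuminCre, a Cre recombinase driven by the Albumin promoter and therefore active in hepatocytes. The strain was C57BL/6.129 and opposite-sex normal liver DNA of that background, wild type by the study's methods, served as reference. Mouse 3151 (Mad2(f/f) p53(f/+), female, 16.4 months) gave HCC 1, HCC 2 and unaffected liver 1. Mouse 3760 (Mad2(f/f) p53(f/f), male, 13.8 months) gave HCC 3, on 1 array only, and unaffected liver 2. Mouse 4033 (Mad2(f/f) p53(f/f), male, 13.9 months) gave HCC 4, HCC 5 and unaffected liver 3. All 8 tissues thus share the floxed Mad2 alleles, which lie on the same chromosome: the Mad2l1 probe is 12.0 Mb beyond the interval. Other liver cells escape AlbuminCre, and the levels are averages over whatever cells each piece held. The arrays came from 4 slides scanned on 2 days, with HCC 4 and its own liver on different slides and days.

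Copy number differs between healthy inbred mice as well as between tumours and normal tissue, and inbred strains carry many small deletions, duplications and single base differences. In array CGH a short probe reports both: a gain or loss of its segment, and a mismatch that weakens binding of 1 of the DNAs. A segment of altered copy number moves neighbouring probes together, while a change under a single probe does not. Which of these applies at the probes below was not tested. Among the genes of the interval, Chn2 encodes beta2-chimaerin, which switches off the small GTPase Rac. Scrn1 encodes secernin 1, a cytosolic protein first described as a regulator of exocytosis, and Fkbp14 encodes a prolyl isomerase that assists collagen folding in the endoplasmic reticulum. In the RefSeq gene table (GRCm38.p6), whose order was read without its coordinates, Wipf3 is the protein-coding gene between Prr15 and Scrn1, and no probe of the interval bears its name. The names AK135613, AK087032, AK081094 and AK031998 are cDNAs with no symbol in that table.

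The probe sequences below show the pair that stood out, in capitals, and their nearest neighbours, in lower case, which did not. Capitals run over the full length because a probe gives a single reading. Which bases of a probe matter to that reading was not determined. Each is written as the array design lists it, 5′ to 3′, with its position from the files, which do not name the genome build or the strand.
AK135613 outer probe, chr6:54014811-54014870: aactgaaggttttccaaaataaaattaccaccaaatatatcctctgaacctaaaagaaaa
AK135613 inner probe, chr6:54212324-54212383: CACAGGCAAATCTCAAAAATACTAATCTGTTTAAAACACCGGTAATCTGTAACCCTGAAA
Chn2 first probe, chr6:54228555-54228614: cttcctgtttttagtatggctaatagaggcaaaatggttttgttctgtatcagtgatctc
AK031998 probe, chr6:54457655-54457714: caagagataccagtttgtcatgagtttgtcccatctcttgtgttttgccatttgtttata
Scrn1 probe, chr6:54504944-54505003: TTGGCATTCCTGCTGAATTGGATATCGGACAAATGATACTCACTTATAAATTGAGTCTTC
Fkbp14 inner probe, chr6:54527834-54527893: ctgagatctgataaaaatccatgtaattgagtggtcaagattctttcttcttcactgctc
The AK135613 inner probe has 35.0% G and C and the Scrn1 probe 36.7%, against a median of 36.7% over autosomal probes. The longest stretch that the AK135613 inner probe shares with any other of the 42404 probes, on either strand, is 16 bases, and for the Scrn1 probe it is 14 bases. Over the 9 probes this length ranged from 14 to 16 bases.

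The AK135613 inner probe had the widest range of the interval. In mouse 4033 the level was 3.63 for unaffected liver 3, 3.75 for HCC 5 and 1.31 for HCC 4. In mouse 3151 it was -0.34 for unaffected liver 1 and -0.76 for both HCC 1 and HCC 2, and in mouse 3760 it was -0.31 for unaffected liver 2 and -0.05 for HCC 3. As means over orientations, the 3 tissues of mouse 4033 were all above the 5 tissues of the other mice, but single arrays overlapped. Unaffected liver 1 gave -1.66 forward, with both channels below background. Its dye swap, with both channels well above background, gave 0.98, against 0.82 for HCC 4 forward. From the deposited ratios the mean level was 0.50 for unaffected liver 1 and 1.31 for HCC 4. The reference channel was well above background on 1 of 2 arrays for unaffected liver 3 and for HCC 4 and on 0 of 2 for HCC 5, so the heights of these levels are not exact. The orientations of mouse 4033 gave 4.02 and 3.24 for unaffected liver 3, 3.37 and 4.13 for HCC 5, and 0.82 and 1.80 for HCC 4, forward array first. Below 0 the probe was unsteady: HCC 1 gave -2.23 forward and 0.71 on the dye swap, and HCC 2 gave -2.61 and 1.08. The outer AK135613 probe, 198 kb before it, lay between -0.08 and 0.13 in all 8 tissues.

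**Figure D1:**
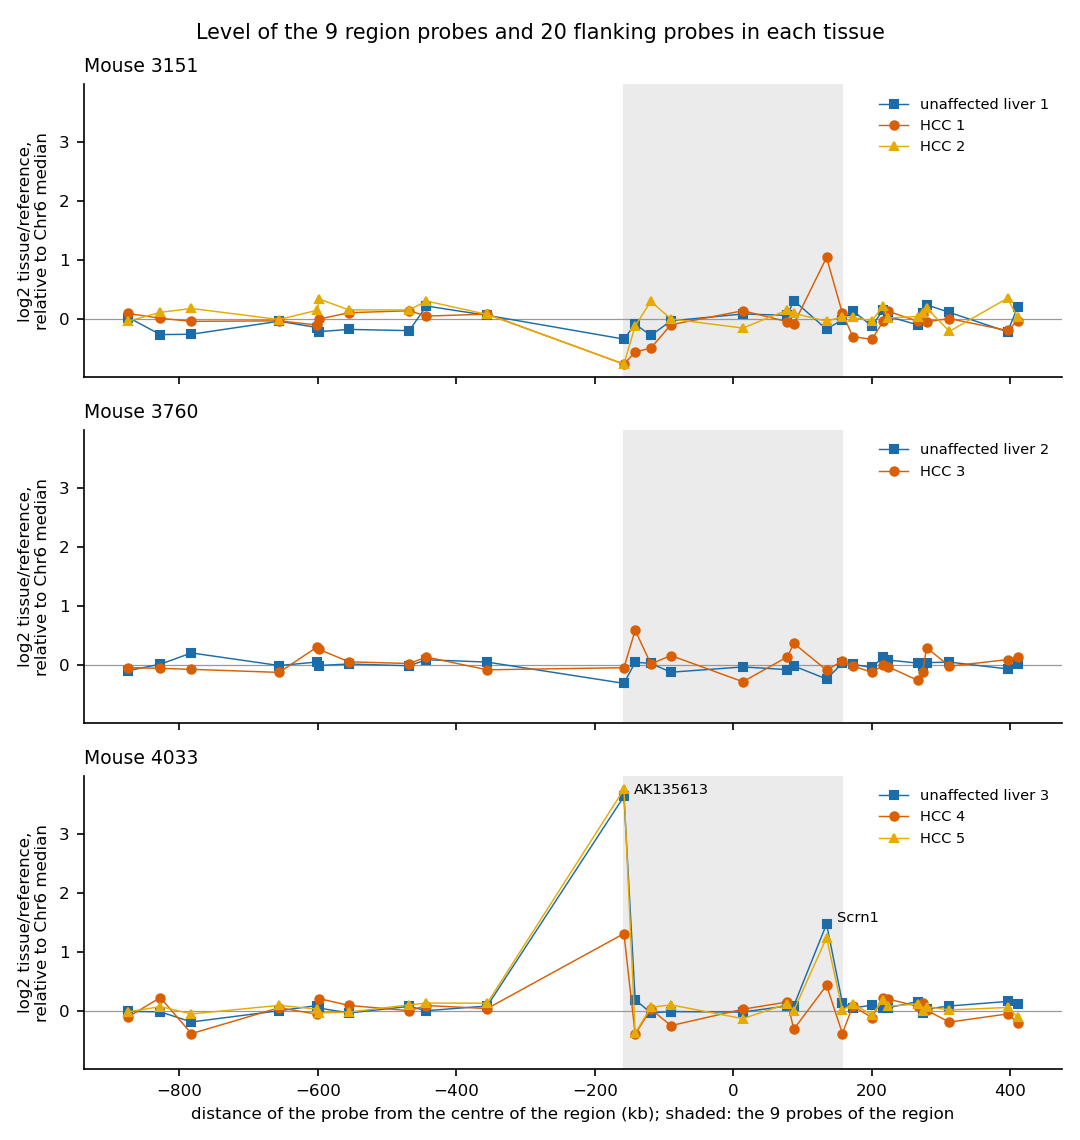
Level of the 29 probes (vertical axis, log2 tissue over reference relative to the Chr6 median) against distance from the centre of the interval in kb, with 1 panel per mouse and the interval shaded. In mouse 4033 the AK135613 probe reached 3.63 in unaffected liver 3 and 1.31 in HCC 4 and the Scrn1 probe 1.47 and 0.43, while probes between them stayed within 0.40 of 0.

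The Scrn1 probe, 293 kb further along, was also higher in unaffected liver 3 and HCC 5 than in HCC 4, at a smaller size. There it read 1.47 for unaffected liver 3, 1.24 for HCC 5 and 0.43 for HCC 4, with orientations of 1.64 and 1.30, 1.23 and 1.24, and 0.46 and 0.41. In the other mice it read -0.17 for unaffected liver 1, -0.24 for unaffected liver 2, -0.04 for HCC 2 and -0.09 for HCC 3. HCC 1 stood at 1.05, but this mean joined a forward value of -0.34 and a dye-swap value of 2.43 and so rested on 1 array. Without the dye-swap array, mouse 4033 was above all tissues of the other mice at this probe too, but with it HCC 1 was above HCC 4. It was set aside after its value was seen. Both of its channels were well above background, whereas the reference channel of the HCC 1 forward array was not. Scrn1 levels were also taken with normexp background correction in place of the processed signals. They were 0.06 for unaffected liver 3, 0.25 for HCC 5 and -0.15 for HCC 4. HCC 1 read 0.85 there, above all of mouse 4033. Unaffected livers 1 and 2 read -0.23 and -0.21, close to HCC 4, and HCC 2 and HCC 3 read -0.50 and -0.52. Mouse 4033 thus did not stand apart at Scrn1 under normexp, and the height of its levels depended on how background was treated. The AK135613 inner probe under the same correction gave 1.45 for unaffected liver 3, 1.22 for HCC 5 and 0.63 for HCC 4. These were still above the highest value of the other 5 tissues, -0.13.

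Both probes were dim, so the 2 channels were read separately, each as log2 signal relative to the Chr6 median of that channel. At the AK135613 inner probe the tissue channel was -0.30 for unaffected liver 3, -0.35 for HCC 5 and -1.01 for HCC 4. It ranged from -4.65 to -3.17 in the other 5 tissues. The tissue channel was well above background on all 6 arrays of mouse 4033 and on 1 of the 9 other arrays, the dye swap of unaffected liver 1. Thus DNA of mouse 4033 gave near-typical signal at this probe, and DNA of the other mice gave signal near the floor. The reference channel was well above background on 3 of 15 arrays only. For HCC 5 the reference was below background on both arrays. The reference was then put, on each array, at its own reading or at the lowest signal called well above background, whichever was higher. This hardly moved it, from -4.09 to -4.08. Tissue over reference was then 13.2-fold, relative to Chr6. That is not a lower bound, since a reference reading of -2.56 at this probe (HCC 1 forward) was also below background. The normexp level of HCC 5 was 1.22. In HCC 1, HCC 2, HCC 3 and unaffected liver 2 neither channel was well above background on any array, so their negative levels have no size. At the Scrn1 probe the tissue channel was well above background on 14 of 15 arrays and the reference channel on 11. Its tissue channel read -1.92 for unaffected liver 3, -1.73 for HCC 5 and -1.70 for HCC 4. In the other mice it read -2.51 for unaffected liver 1, -3.29 for unaffected liver 2, -2.54 for HCC 2 and -2.63 for HCC 3, while HCC 1, at -1.04, was above all of mouse 4033 through its dye-swap array (0.68, against -2.75 forward).

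**Figure D2:**
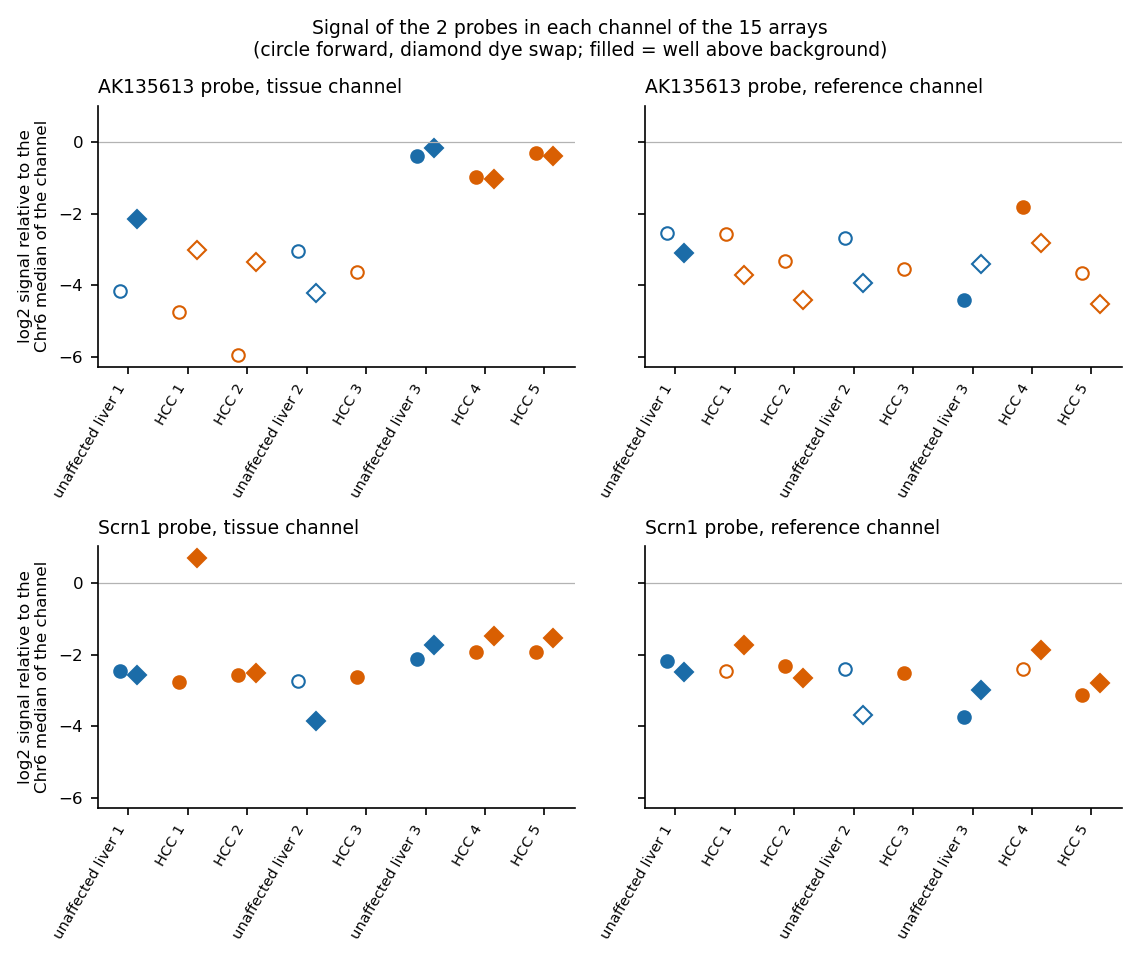
Log2 signal relative to the Chr6 median of the channel (vertical axis) for the AK135613 inner probe (top) and the Scrn1 probe (bottom) on each of the 15 arrays, tissue channel left and reference channel right; circles are forward arrays, diamonds dye swaps, blue unaffected livers and orange HCC, and filled points were well above background. At AK135613 the 6 tissue values of mouse 4033 lie between -1.03 and -0.19, and the reference channel of HCC 4 is the highest at -1.83 forward.

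The channels also showed where HCC 4 differed from its own liver. At the AK135613 inner probe HCC 4 was 2.32 lower than unaffected liver 3 in the ratio of tissue to reference, written as -2.32. The tissue channel, well above background on both arrays of each tissue, differed by -0.72. The reference channel read 1.59 higher on the HCC 4 arrays, but it was well above background on only 1 of 2 arrays of each tissue, so neither that value nor the full size of the ratio difference is exact. With normexp the levels were 1.45 for unaffected liver 3 and 0.63 for HCC 4. At the Scrn1 probe the ratio differed by -1.04, the tissue channel by 0.22 and the reference channel by 1.24. At the first Chn2 probe the ratio differed by -0.59, the tissue channel by -0.02 and the reference channel by 0.54. At the Fkbp14 inner probe these differences were -0.52, -0.19 and 0.31. In the tissue channel alone HCC 4 was thus lower than its liver by less than the ratio read at these 4 probes, and at Scrn1 it was not lower. The HCC 4 arrays lay on another slide and scan day than those of unaffected liver 3, and slide and tissue cannot be told apart in this comparison. HCC 5, on the same slide as its liver, differed from it by 0.12 in the ratio, -0.06 in the tissue channel and -0.18 in the reference channel at the AK135613 inner probe.

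None of the remaining 7 probes reached 0.3 above the Chr6 median in mouse 4033, but some lay more than 0.3 below it. HCC 4 read -0.40 at the first Chn2 probe, -0.31 at AK031998 and -0.39 at the Fkbp14 inner probe. HCC 5 read -0.38 at the first Chn2 probe. In unaffected liver 3 the levels of the 7 probes ran from -0.04 to 0.19, with a mean of 0.06 ± 0.09 (SD, n = 7 probes). In HCC 5 the mean was -0.03 ± 0.17 and in HCC 4 it was -0.16 ± 0.23. The count of probes at least 0.3 above the Chr6 median was 2 of 9 in each of the 3 tissues, namely AK135613 and Scrn1 every time. Over all autosomal probes the share past that level was 1.17% for unaffected liver 3, 1.86% for HCC 5 and 4.1% for HCC 4. Elsewhere the count was 1 in HCC 1 (Scrn1, 4.69% of all autosomal probes), 1 in HCC 2 (the second Chn2 probe, 7.94%), 2 in HCC 3 (the first Chn2 probe and AK031998, 8.92%), 1 in unaffected liver 1 (AK031998, 4.52%) and 0 in unaffected liver 2 (0.854%). The first Chn2 probe ranged from -0.55 in HCC 1 to 0.59 in HCC 3, and its orientations differed by a median of 0.55, a gap that 2.52% of autosomal probes equalled or passed. The second Chn2 probe, 22.5 kb on, ranged from -0.49 in HCC 1 to 0.30 in HCC 2. In HCC 5 the pair read -0.38 and 0.06, but the first value joined 0.34 forward and -1.10 on the dye swap. Whether Chn2 had a common level in HCC 5 can therefore not be told from the pair. Prr15, a gene for a small proline-rich protein, lay between -0.25 in HCC 4 and 0.16 in HCC 3. AK087032 lay between -0.28 and 0.14, AK081094 between -0.08 and 0.16, and AK031998 between -0.31 and 0.37. The Fkbp14 inner probe read -0.39 in HCC 4 and from -0.01 to 0.13 in the other 7 tissues, while the second Fkbp14 probe, just outside the interval, read 0.08 in HCC 4.

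The flanks stayed near the Chr6 median. Over the 10 probes before the interval, from AK084024 and Creb5 to the outer AK135613 probe, the mean was 0.0039 ± 0.08 for unaffected liver 3, 0.04 ± 0.07 for HCC 5 and 0.02 ± 0.17 for HCC 4. Over the 10 probes after it, from Fkbp14 through Plekha8 and 2410066E13Rik to Znrf2, it was 0.07 ± 0.06, 0.05 ± 0.09 and 0.02 ± 0.15. These levels are log2 ratios relative to Chr6, with its own median of 0.30 for HCC 1, 0.33 for HCC 2, 0.34 for HCC 4, -0.32 for HCC 5, and between -0.04 and 0.02 for HCC 3 and the livers.

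Averaged over its 9 probes, the interval read 0.61 for unaffected liver 3, 0.53 for HCC 5 and 0.07 for HCC 4. Mouse 3151 read -0.05 in its liver, -0.08 in HCC 1 and -0.05 in HCC 2, and mouse 3760 read -0.08 in its liver and 0.10 in HCC 3. Its standard deviation over the 9 probes was 1.23 in unaffected liver 3 and 1.29 in HCC 5, larger than the mean itself. The median over the 9 probes was 0.09 for unaffected liver 3, 0.06 for HCC 5 and 0.03 for HCC 4. By orientation the mean was 0.72 and 0.51 for unaffected liver 3, 0.59 and 0.47 for HCC 5, and 0.0055 and 0.13 for HCC 4. Orientations of mouse 3151 took opposite signs, at -0.42 and 0.26 for HCC 1, -0.27 and 0.17 for HCC 2 and -0.32 and 0.21 for unaffected liver 1.

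Against the liver of the same mouse the mean shift was -0.54 in HCC 4, the value that chose the interval, and -0.08 in HCC 5 from the same animal. For HCC 1, HCC 2 and HCC 3 it was -0.04, -0.0034 and 0.18. A shift is taken relative to the Chr6 median of the differences, and so can depart by about 0.01 from the difference of the levels above. Of the summed shift of HCC 4, AK135613 gave 47.6% and AK135613 with Scrn1 gave 68.8%. Without that pair the shift of HCC 4 was -0.22 ± 0.29 (SD, n = 7 probes). In HCC 4, 5 of 9 probes lay at least 0.3 below its liver (AK135613, the first Chn2 probe, AK031998, Scrn1 and Fkbp14), where 9.7% of all autosomal probes did. In HCC 5 only the first Chn2 probe did, at -0.56, where its level had opposite signs by orientation, against 2.71% of all autosomal probes. The count was 3 in HCC 1 (13.3%), 1 in HCC 2 (8.23%) and 0 in HCC 3 (7.34%). At the edges the shift of HCC 4 went from -0.04 at the outer to -2.32 at the inner AK135613 probe, and from -0.51 at the inner to 0.04 at the outer Fkbp14 probe. HCC 1 lay 1.21 above its liver at Scrn1, again on the strength of its dye-swap array.

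**Figure D3:**
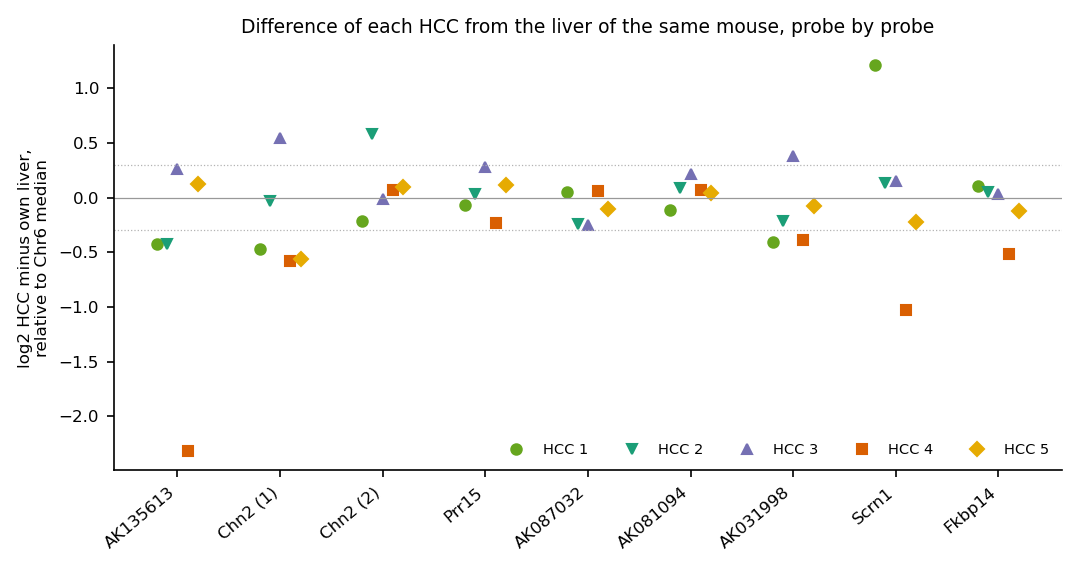
Log2 difference of each HCC from the unaffected liver of its mouse, relative to the Chr6 median (vertical axis), at the 9 probes in chromosomal order (horizontal axis); dotted lines mark 0.3 above and below 0. HCC 4 lies at -2.32 for AK135613 and -1.03 for Scrn1, and HCC 5 at 0.12 and -0.23.

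To ask whether tumours as a group differed from unaffected livers, limma was fitted to all autosomal probes, with 5 HCC against 3 unaffected livers. The 8 tissues came from 3 mice, but the fit held no mouse term and so treated them as independent. The permutation test below did likewise. With mouse as a block the limma difference was -0.38 at the AK135613 inner probe (adjusted p = 0.896) and 0.16 at Scrn1 (adjusted p = 0.915). The values that follow are from the fit without it. No probe passed an adjusted p of 0.05 (0 of 40726, or 0%), although 3012 had an unadjusted p under 0.05. An exact permutation test per probe over 56 splits, whose smallest p is 0.0179, could pass the adjusted threshold only with a large share of all probes at that p, and gave 0 such calls and 2921 probes with an unadjusted p under 0.05. At the AK135613 inner probe HCC averaged 0.82 ± 1.70 (SD, n = 5) and livers 1.00 ± 2.30 (n = 3) before the Chr6 median was taken off, a limma difference of -0.18 with a standard error (SE) of 0.93 and an adjusted p of 0.967. At Scrn1 HCC averaged 0.64 ± 0.57 and livers 0.36 ± 0.98, a limma difference of 0.28 (SE 0.37, adjusted p = 0.860). The median difference over the 9 probes was 0.03, beside -0.0011 over all autosomal probes, and limma's adjusted p ran from 0.797 to 0.997. Since HCC 4 and its liver also chose the interval, the fit was repeated without mouse 4033, and the limma difference was then 0.0024 at AK135613 (SE 0.18) and 0.71 at Scrn1 (SE 0.36), each with an adjusted p of at least 0.986.

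To see whether HCC 4 resembled its mouse elsewhere, probes outside the interval and its flanks were taken that stood at least 0.4 above their chromosome median in both unaffected liver 3 and HCC 5. There were 172, with a median of 0.67 in unaffected liver 3. In HCC 4 their median was 0.58 (quartiles 0.38 and 0.92), and 155 of them, or 90.1%, read at least 0.2, as did 10.9% of all autosomal probes. On forward arrays alone the median was 0.33. In the other mice the same 172 probes had medians of -0.06 for unaffected liver 1, -0.11 for HCC 1, -0.05 for HCC 2, 0.14 for unaffected liver 2 and 0.26 for HCC 3. Their shares at 0.2 or more there ran from 27.3% in HCC 1 to 55.2% in HCC 3, so part of these probes were high over the reference outside mouse 4033 too. The converse choice, from unaffected liver 3 and HCC 4, gave 147 probes with a median of 0.67 in HCC 5. Of these, 95.2% read at least 0.2 there, as did 4.40% of all autosomal probes.

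**Figure D4:**
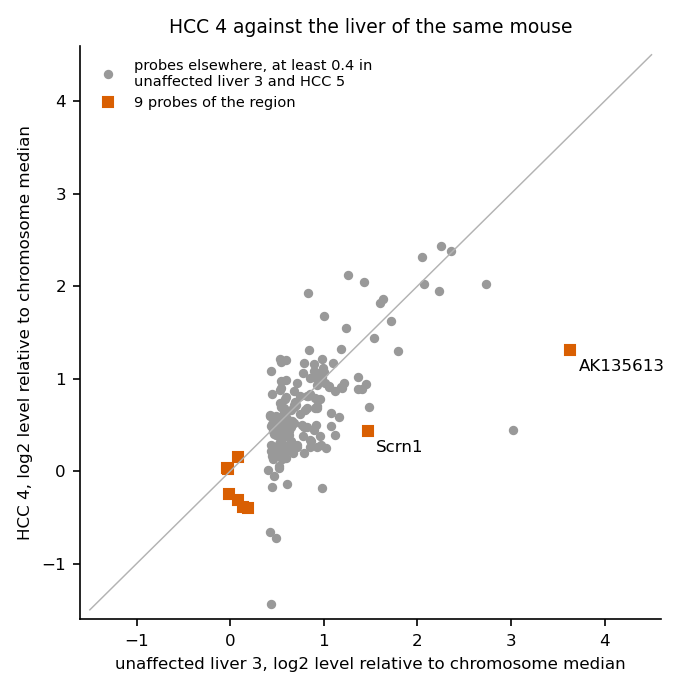
Level in HCC 4 (vertical axis) against level in unaffected liver 3 (horizontal axis), both log2 tissue over reference relative to the chromosome median, for the 172 probes elsewhere (grey) and the 9 probes of the interval (orange), with the line of equal levels. AK135613 lies at 3.63 and 1.31 and Scrn1 at 1.47 and 0.43, below the line, and the other 7 probes lie between -0.40 and 0.15 in HCC 4.

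Only 6 of 40726 autosomal probes (0.0147%) read at least 1 in all 3 tissues of mouse 4033 and under 0.5 in the other 5, and the AK135613 inner probe was 1 of them. These limits were set after the values were seen. Another lay on Chr6 as well, in no named gene (57961817 to 57961876), at 1.54 for unaffected liver 3, 1.44 for HCC 4 and 1.69 for HCC 5, against -1.26 for unaffected liver 1. The others lay in Larp7 and AK173191 on Chr3, Tmprss4 on Chr9 and Gprc6a on Chr10. At the Chr3 pair the tissues of mouse 3151 read between -3.63 and -2.53. These are not ranked against AK135613, where the negative levels of HCC 1 and HCC 2 have no size. Among 888 gene names with at least 2 probes and an SD of at least 0.2 over the 8 tissues, the level of Ccdc129 (now Itprid1) on Chr6 was most like that of the interval, with r = 0.96 over 8 tissues that share mice and slides. Here too 1 probe carried the pattern: the Ccdc129 probe from 55902278 to 55902337, 1.37 Mb beyond the interval, read 0.96 for unaffected liver 3, 1.19 for HCC 5 and 0.37 for HCC 4, and from -0.72 to -0.26 in the other 5 tissues. The other pair of Ccdc129 probes lay between -0.42 and 0.14. Gats (now Castor2, r = 0.93), St3gal4 (r = 0.93), Gtf2ird2 (r = 0.91) and Upf2 (r = 0.89) followed, on other chromosomes.

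Genes related to the members showed no such level in mouse 4033. Of 11 relatives in the list, 10 had a probe: Chn1, the other chimaerin, Rac1 and Rac2, the GTPases chimaerins act on, the prolyl isomerases Fkbp7, Fkbp9, Fkbp10 and Fkbp11, the secernins Scrn2 and Scrn3, and Prr15l. None of their 19 probes read 0.3 or more in unaffected liver 3, HCC 4 or HCC 5, and in unaffected liver 3 they ran from -0.12 to 0.15. Over all autosomal probes the share at that level was 1.17%, 4.1% and 1.86% in these tissues. None among 19 is thus close to what any such number of probes would give. None of the 19 passed limma between HCC and unaffected livers either, with a median difference of 0.11. Its unadjusted p was under 0.05 for 3 of the 19, and for 3012 of 40726 autosomal probes. These 3 were both Rac2 probes and the Fkbp11 probe, all on Chr15, and chromosome medians were not taken off before the fit. The paper reports frequent gain of that chromosome in HCC. Relative to the Chr15 median Rac2 averaged -0.21 to 0.11 in HCC and -0.12 to -0.02 in unaffected livers. Fkbp11 read -0.21 to 0.33 and -0.43 to 0.06. Whether the 3 differences follow the whole chromosome was not tested. Of the targeted genes, Mad2l1 on Chr6 read 0.67 for unaffected liver 3, 0.20 for HCC 4 and 0.91 for HCC 5. It read -1.53 for HCC 1, -1.04 for HCC 2, 0.12 for HCC 3, 0.04 for unaffected liver 1 and 0.33 for unaffected liver 2. Trp53 on Chr11 read -0.72, -1.82 and -2.13 for the same 3 tissues of mouse 4033. It read -0.75 for HCC 1, -0.92 for HCC 2, -0.20 for HCC 3, -0.07 for unaffected liver 1 and -0.87 for unaffected liver 2. Whether either probe lies within its floxed segment was not determined.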

How the data were processed

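Genomic DNA of 8 liver tissues was hybridized on 15 2-colour Agilent arrays. Per the file headers, the authors made the deposited intensity values with Feature Extraction 9.1.3.1, background-subtracted and dye-normalized, with a surrogate for signals near background. The log10 ratios deposited as a series matrix equalled the scanner files' ratio at all 43020 non-control spots per array within 1e-05, with the sign turned on dye swaps. Median signal over background was 3.72 to 7.95 and the number of tissues limits precision. Here log2 tissue over reference was computed from the processed signals, control and outlier-marked spots were left out, spots of a probe averaged, arrays centred on the autosomal median, and orientations averaged to 1 tissue. No loess was applied. None of the 135 spots of the 9 probes had an outlier or saturation mark. A level is relative to the median of its chromosome. Probes were compared with limma 3.58.1 (two-sided moderated test of lmFit and eBayes, Benjamini-Hochberg) in R 4.3.3 and with an exact permutation test whose smallest p is 0.0179. On simulated data with 200 of 40720 probes shifted by -1, 184 were recovered and 8 others were called falsely. The simulated tissues shared no mouse or slide, so recovery in the real data may differ. It does not carry over to a probe as variable as the AK135613 inner probe (SE 0.93). Plots used matplotlib 3.10.9. Tissues of 1 mouse pair the groups per the labels, and their deviations from group means correlated with r of 0.13 to 0.29 within a mouse and -0.21 to 0.09 between mice. Genes named were all names in the interval and flanks, the targeted genes, a list of relatives and the 5 names most like the interval. The members and lists were chosen with earlier results of these data known. Positions are those of the files, whose build is not given in the sources used here, and exon or intron was not determined. Further tissues counted in the series text were not analysed here.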

Additional observations from a re-analysis of the deposited data

Results flagged for a closer look

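Among 30 measures, each 1 probe or the mean of the interval over 5 HCC, a single HCC stood far from the rest at 2 probes. The Fkbp14 inner probe (54527834) read -0.39 in HCC 4, lowest of the 5, with a gap to the next of 81.5% of the range. The interval was chosen for low values in HCC 4, so this flag is not independent of that choice. The AK081094 probe (54448363) read -0.0425 in HCC 1, with a gap of 81.6% of a narrow range. The critical gap for 5 samples is 71.0%, and chance alone marks about 1 in 20 groups, so 2 flags among 30 measures are close to chance.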

How the results depend on the processing

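limma called 0 probes under all 20 of its alternatives, among them each tissue left out in turn (range 0 to 0), the mouse as replicate block (0), slide, scan day and dim probes left out. The permutation test also gave 0, but its smallest p left it little room to call any. The replicate block changed no call at the 9 probes. Over these alternatives the HCC minus liver difference ran from -0.86 to 1.15 at the AK135613 inner probe and from -0.01 to 0.85 at Scrn1. Both drop out when dim probes are left out.

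Because AK135613 and Scrn1 carry the mean of the interval, settings that leave them out moved it. The mean level of HCC 5 was -0.033 without dim probes and -0.031 without that pair, 0.13 without AK135613, 0.060 as a median and 0.19 with normexp. In unaffected liver 3 these values were 0.060, 0.060, 0.24, 0.086 and 0.20. The shift of HCC 4 was -0.22 without dim probes, -0.22 without the pair, -0.32 without AK135613, -0.39 as a median, -0.24 with normexp, -0.70 on forward arrays and -0.37 on dye swaps. Without Scrn1 the shift of HCC 1 was -0.19. Relative to all autosomes the level was 0.22, 0.28, 0.40 and 0.21 for HCC 1, 2, 4 and 5, the flanks read 0.28, 0.44, 0.35 and -0.27 there, and the shift was 0.30, 0.36, -0.23 and -0.42, as the median of Chr6 is then not taken off. By orientation the level of HCC 1 was -0.42 forward and 0.26 on the dye swap and that of unaffected liver 1 was -0.32 forward, with flanks of -0.16 and 0.11; the cause was not tested. The median of high probes elsewhere in HCC 4 was 0.33 on forward arrays and, with selecting levels of 1 and 2 chosen after seeing the data, 1.23 and 2.02. The settings without that pair were also chosen after seeing the data. Signal over background limits AK135613 most, since its reference channel was well above background on 3 of 15 arrays.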
